A study of Homo sapiens with 6 samples.

Results

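Described here are 10 genes of the cellular hypoxia response that act outside glycolysis: BNIP3, BNIP3L, VEGFA, ADM, CA9, CA12, NDRG1, ANKRD37, HILPDA and AK4. They were taken by gene symbol, and all 10 were found among the 15496 genes of the deposited expression table. The samples were HEK293 cells, an established human line derived from embryonic kidney, grown in RPMI medium with serum. One group was treated with B23, a compound that the labels call a quinolinol, and the other was given the solvent DMSO. Polyadenylated RNA was sequenced from 3 libraries per group. Dose and length of treatment were not given in the sources used here, and both groups come from 1 cell line.

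The hypoxia-inducible factors (HIF) are transcription factors made of an oxygen-regulated alpha subunit and the partner ARNT. When oxygen is ample, prolyl hydroxylases that need iron and oxygen mark the alpha subunit for degradation through VHL; otherwise it accumulates, enters the nucleus and binds DNA at the core letters ACGTG or GCGTG. Besides the glycolytic enzymes, its known targets include mitochondrial receptors for mitophagy (BNIP3, BNIP3L), secreted vascular factors (VEGFA, ADM), extracellular carbonic anhydrases (CA9, CA12), and regulators of lipid storage and nucleotides (HILPDA, AK4).

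Expression is given as deposited, in CPM (reads of a gene scaled to a common library size). How that size was set was not given, so a level is relative to it and is not an amount per cell. A change in RNA per cell and a change in the share of cells that express a gene cannot be told apart in such bulk samples. The listed genes held 40950318 to 45319519 recovered reads per B23 library and 45732612 to 47444126 per DMSO library. The deposited CPM divide reads by larger library sizes, 45992653 to 50816208 in B23 and 60818727 to 63162122 in DMSO, so that 1 read was worth 0.0197 to 0.0217 CPM in B23 and 0.0158 to 0.0164 CPM in DMSO. The listed genes therefore summed to 890367 to 900113 CPM per B23 library and 745216 to 753745 CPM per DMSO library. Log2 values of replicates had a Pearson r of 0.9979 to 0.9988 across genes, which are not independent replicates. The labels speak of triplicates and do not mention separate cultures, so the p-values reflect only how these libraries vary, which may be technical variation. All 8 HEK293 markers had reads, 4 of them higher and 4 lower in B23. Their summed level, led by VIM and KRT8, was 1296 to 1376 CPM in B23 and 833 to 877 CPM in DMSO. VIM, KRT8, KRT18 and INA had log2 differences, B23 minus DMSO, of 0.89, 1.47, 1.09 and 0.47. Those of NEFL, NEFM, PAX2 and LHX1 were -0.82, -0.68, -1.75 and -1.52. Of the markers of other cell types, the 1 endothelial gene with a value, TEK, stayed at 0 to 0.138 CPM in B23 and 0.0159 to 0.0822 CPM in DMSO. The 1 blood marker with a value, CD68, lay at 5.67 to 6.04 CPM in B23 and 3.01 to 3.48 CPM in DMSO, and the fibroblast markers COL1A1 and DCN summed to 11.5 to 13.4 CPM in B23 and 9.07 to 9.86 CPM in DMSO. The part of these markers in the results was not tested.

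Most of the 10 genes were higher after B23, by sizes that differed widely. In limma's moderated test across the genes averaging 1 CPM or more, 9 of the 10 could be tested: 8 were higher in B23 and 1, CA12, was lower, at a Benjamini-Hochberg adjusted p under 0.05. The remaining gene, CA9, fell just under the 1 CPM limit and is described by its reads. The background was broad, with 39.6% of the 14792 tested genes higher and 49.0% lower. A call by itself therefore says little about these genes, or about the other lists of genes counted below. A call combined with a rise of at least 1 on the log2 scale was rarer, at 9.65% of tested genes, and 6 of the 9 met it: BNIP3, ANKRD37, NDRG1, BNIP3L, AK4 and ADM. The median difference of the 9 was 1.61 on the log2(CPM + 0.5) scale, beside -0.10 for all tested genes. The genes were chosen with earlier results of these data known. These figures therefore describe them and do not test the set against the background. The 3 B23 values and the 3 DMSO values did not overlap for any of the 10, as was so for 86.9% of all listed genes. Rescaling each library to the total of its listed genes changed the background to 4353 genes higher and 9050 lower (67.5% of calls lower, against 55.3% on the deposited scale), and moved the median of all genes by -0.24. The coefficient of variation between replicates lay between 1.41% and 7.42% for the 9 tested genes.

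**Figure D1:**
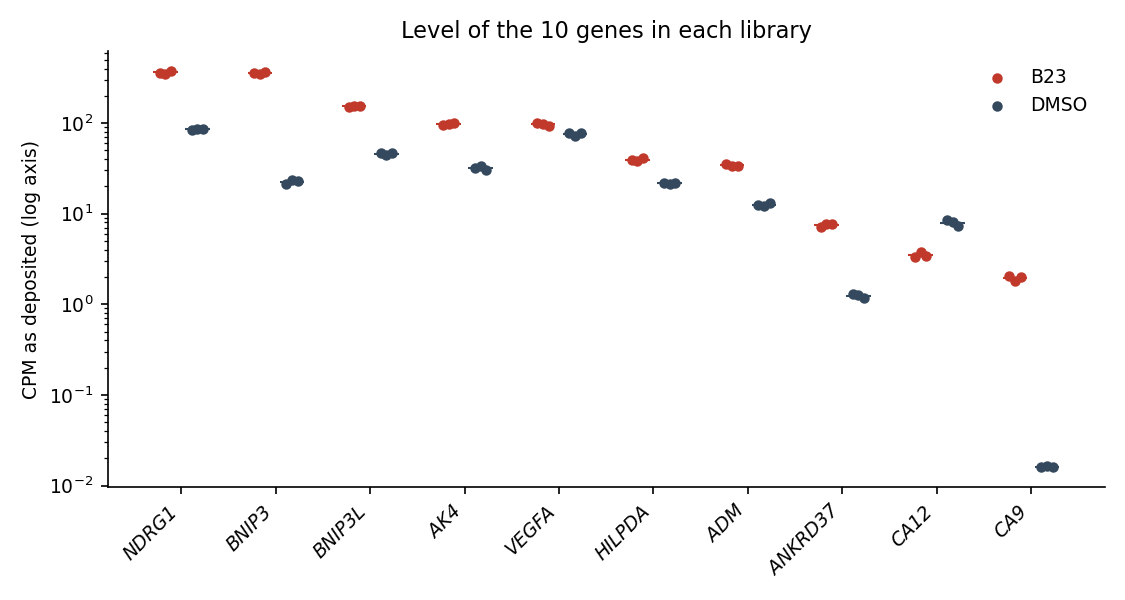
Level of each of the 10 genes in CPM on a log axis, 1 point per library (3 B23 in red, 3 DMSO in dark blue) with the group mean as a bar, in order of mean level. The groups do not overlap for any gene, CA12 is the only one that is lower in B23, and CA9 lies at 1 read in each DMSO library.

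**Figure D2:**
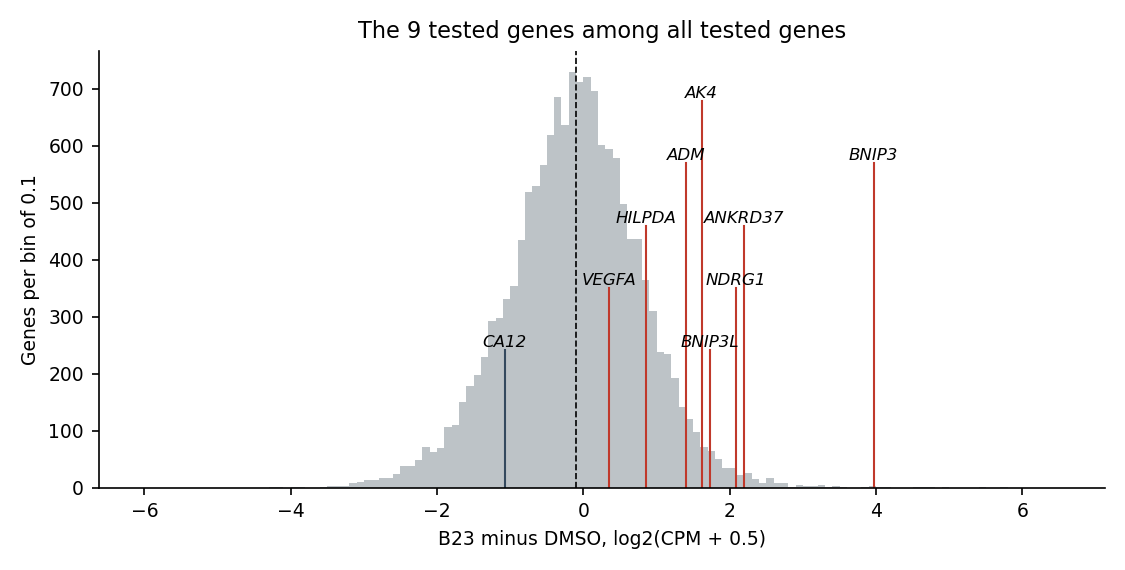
Histogram of the difference, B23 minus DMSO on the log2(CPM + 0.5) scale, over the 14792 tested genes, with a vertical line for each of the 9 tested genes and a dashed line at the median of all genes (-0.10). BNIP3 lies in the far right tail at 3.97, whereas VEGFA at 0.35 lies within the bulk of the distribution.

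BNIP3 and BNIP3L are outer mitochondrial membrane proteins that recruit the autophagy machinery to mitochondria through LC3-interacting motifs, and both have been linked to cell death. BNIP3 (chromosome 10, 131966455 to 131982013, minus strand) had 358, 352 and 371 CPM in B23, against 21.3, 23.3 and 23.1 CPM in DMSO. All 3 B23 libraries were far above all DMSO libraries. Its mean was 359.98 ± 9.75 CPM in B23 and 22.6 ± 1.12 CPM in DMSO (SD, n = 3 each), a 15.9-fold rise. The log2 difference was 3.97 (SE 0.038, limma adjusted p = 8.24e-29), which placed BNIP3 at rank 10 of all 14792 tested genes by size of rise. BNIP3L, its paralog, had 149, 154 and 156 CPM in B23, against 46.5, 44.6 and 46.3 CPM in DMSO. It too was higher in every B23 library, though by less, with a 3.34-fold rise and a log2 difference of 1.73 (SE 0.035, limma adjusted p = 5.76e-23). PNMA2, which shares 330 exonic bases with BNIP3L on the opposite strand, moved the other way, with 41.3 ± 1.68 CPM in B23 and 66.2 ± 4.55 CPM in DMSO. Whether strand was used in counting was not given in the sources used here.

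Within a library, the balance of the paralogs differed in sign between the groups. The log2 ratio of BNIP3 to BNIP3L was 1.263, 1.192 and 1.246 in B23, against -1.11, -0.92 and -0.99 in DMSO. Per kilobase of the longest coding transcript, BNIP3 was likewise the higher of the pair in B23 (126 against 42.3 CPM per kb for BNIP3L) and the lower in DMSO (7.89 against 12.7 CPM per kb). The difference of 2.24 gave a two-sided exact permutation p of 0.1, raw and adjusted over the 2 ratios tested, which is the smallest that 3 against 3 libraries allow. BNIP3P1, a pseudogene copy of BNIP3 on chromosome 14, had 10.2, 12.3 and 11.4 CPM in B23, against 0.712, 0.674 and 0.731 CPM in DMSO. Its rise of 15.97-fold was close to that of BNIP3. The level of BNIP3P1 was 2.84% to 3.49% of that of BNIP3 in B23 and 2.89% to 3.35% in DMSO. Reads of near-identical copies can be split by counting, so the level of BNIP3P1 is uncertain. How far this touches the level of BNIP3 was not tested. Among 16 other mitophagy genes, 15 were tested: 11 were higher, 3 lower and 1 passed in neither direction, with a median of 0.34. SQSTM1, an adaptor that carries ubiquitinated cargo to autophagosomes, had 754.0 ± 16.6 CPM in B23 and 75.8 ± 5.23 CPM in DMSO (SD, n = 3 each). GABARAPL1, an autophagosome membrane protein of the ATG8 family, had 173.6 ± 1.90 CPM in B23 and 36.6 ± 1.99 CPM in DMSO. OPTN, a mitophagy receptor for ubiquitinated mitochondria, had 51.6 ± 0.343 CPM in B23 and 15.2 ± 0.309 CPM in DMSO. These rises had log2 differences of 3.31, 2.23 and 1.73.

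**Figure D3:**
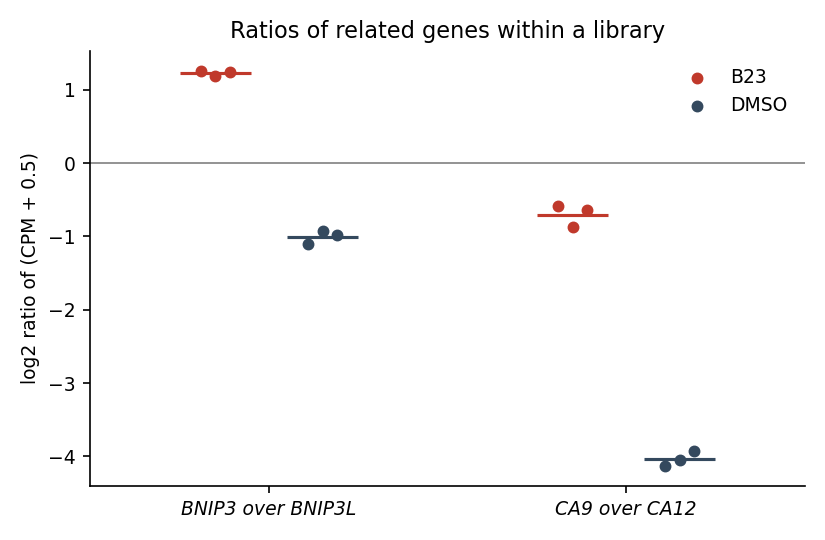
Log2 ratio of BNIP3 to BNIP3L and of CA9 to CA12 in each library, computed on CPM + 0.5 (red, 3 B23 libraries; dark blue, 3 DMSO libraries; bar, group mean). The BNIP3 to BNIP3L ratio lies above 0 in B23 and below 0 in DMSO, and the CA9 to CA12 ratio is below 0 in both groups but nearer to 0 in B23.

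Promoter windows from RefSeq on GRCh38.p14, each 250 bases before to 50 after a start site, were at hand for 6 of the 10 genes. They are shown for the pair BNIP3 and ANKRD37, which had the largest log2 differences of the 9 at a pseudocount of 0.5 (at 2, ANKRD37 was below NDRG1, BNIP3L and AK4), and for CA9 and CA12, which moved in opposite directions. Capitals mark every match to ACGTG or GCGTG on either strand; CACGTG holds 1 match on each strand. The windows are BNIP3, chr10:131981874-131982173, minus strand; ANKRD37, chr4:185396591-185396890, plus strand; CA9, chr9:35673678-35673977, plus strand; and CA12, chr15:63381797-63382096, minus strand. Each is written 5′ to 3′ along its gene, and a position is that of the first base of a match, counted from 1 at the start site and negative before it.
BNIP3: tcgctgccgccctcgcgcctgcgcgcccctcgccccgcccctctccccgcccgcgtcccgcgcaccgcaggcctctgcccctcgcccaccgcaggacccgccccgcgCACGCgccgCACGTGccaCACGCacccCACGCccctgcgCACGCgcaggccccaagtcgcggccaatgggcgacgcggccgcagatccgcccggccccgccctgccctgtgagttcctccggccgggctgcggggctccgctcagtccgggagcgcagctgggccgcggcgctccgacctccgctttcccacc
ANKRD37: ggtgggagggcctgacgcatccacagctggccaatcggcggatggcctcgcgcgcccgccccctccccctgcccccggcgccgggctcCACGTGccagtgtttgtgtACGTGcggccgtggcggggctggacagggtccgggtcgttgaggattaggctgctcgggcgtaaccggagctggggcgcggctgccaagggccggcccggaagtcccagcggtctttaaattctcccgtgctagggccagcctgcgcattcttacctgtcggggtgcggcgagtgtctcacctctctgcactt
CA9: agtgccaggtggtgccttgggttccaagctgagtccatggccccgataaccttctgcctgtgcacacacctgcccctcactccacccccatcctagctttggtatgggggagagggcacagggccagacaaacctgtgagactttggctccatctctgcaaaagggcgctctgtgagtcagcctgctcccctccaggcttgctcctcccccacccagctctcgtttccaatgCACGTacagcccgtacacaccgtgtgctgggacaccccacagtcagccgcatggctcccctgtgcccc
CA12: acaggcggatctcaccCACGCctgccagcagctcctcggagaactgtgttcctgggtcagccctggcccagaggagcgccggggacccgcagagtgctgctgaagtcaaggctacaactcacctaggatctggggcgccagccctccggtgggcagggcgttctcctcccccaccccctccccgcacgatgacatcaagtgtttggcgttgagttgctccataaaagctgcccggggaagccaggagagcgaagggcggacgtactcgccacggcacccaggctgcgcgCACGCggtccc
The BNIP3 window held 2 matches to ACGTG, both in 1 CACGTG at -134 from the start site, and 4 to GCGTG, all between -143 and -104. Of the 35116 windows in the table, 0.923% held 6 or more matches to either motif. The ANKRD37 window held 3 matches to ACGTG, in a CACGTG at -162 and at -143, and 1.98% of windows held 3 or more. CA9 had 1 ACGTG match, at -18 on the opposite strand, as is found in 21.4% of windows, and CA12 had 2 GCGTG matches on the opposite strand, at -234 and 40, where 23.1% of windows hold 2 or more matches to either. The ADM window held 1 GCGTG match, as 36.5% of windows hold at least 1. Each of the 4 AK4 windows held 1 to 3 matches to either motif, where 48.4% of windows hold at least 1 and 10.1% hold 3 or more. The AK4 window at chr1:65147603-65147902 held 3 matches to ACGTG, as many as the ANKRD37 window. Over all tested genes with a window, the median log2 difference was -0.066 for the 3442 with an ACGTG match and -0.086 for the 7133 without. A match is a run of letters and not a measured binding site. The shares are over all windows and were not matched for base composition.

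CA9 and CA12 are membrane enzymes whose active site faces outward and converts carbon dioxide to bicarbonate and protons. They went in opposite directions. CA9 (chromosome 9, 35673856 to 35681159, plus strand) had 2.07, 1.83 and 2.03 CPM in B23, or 84 to 105 reads, against 0.0158, 0.0164 and 0.0159 CPM in DMSO, or 1 read in each library. It was near the floor of detection in DMSO and low but present in every B23 library. The sums of 290 reads in B23 and 3 in DMSO gave a ratio of library-scaled rates of 123, with an exact 95% interval of 41.7 to 601 that covers counting error only. Its mean over all libraries was just under 1 CPM, so it was not tested with the other genes. Without that filter limma gave a log2 difference of 2.26 and an adjusted p of 6.28e-14. At 1 read per DMSO library, log2(CPM + 0.5) is nearly all pseudocount. The pseudocount therefore largely sets that log2 difference, and the p does not measure how CA9 varies between DMSO replicates. ARHGEF39, which shares 643 exonic bases with CA9 on the opposite strand, had 7.74 ± 0.528 CPM in B23 and 19.1 ± 0.365 CPM in DMSO, the other direction.

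CA12 (chromosome 15, 63321378 to 63382161, minus strand) had 3.37, 3.76 and 3.45 CPM in B23, against 8.53, 8.04 and 7.36 CPM in DMSO. Every B23 library was below every DMSO library, and the means, 3.53 ± 0.209 CPM in B23 and 7.98 ± 0.592 CPM in DMSO (SD, n = 3 each), differed 2.26-fold. The log2 difference was -1.07 (SE 0.077, limma adjusted p = 2.81e-12), resting on 171 to 173 reads per B23 library and 463 to 539 per DMSO library. The log2 ratio of CA9 to CA12 was -0.59, -0.87 and -0.65 in B23, against -4.13, -4.05 and -3.93 in DMSO. In CPM, CA9 thus stayed under CA12 in every library of both groups. Per kilobase of the longest coding transcript, CA9 was above CA12 in B23, at 1.22 and 0.550 CPM per kb, and below it in DMSO, at 0.0099 and 1.24 CPM per kb. The difference of 3.33 gave a two-sided exact permutation p of 0.1, again the smallest possible, and it depended on the pseudocount, at 5.31 with 0.1 and 1.83 with 2. Of 13 measured other carbonic anhydrases and transporters of protons, bicarbonate and lactate, 7 were higher, 5 lower and 1 passed in neither direction, with a median of 0.40. The sodium-bicarbonate cotransporter SLC4A7 had 27.2 ± 1.07 CPM in B23 and 14.4 ± 0.597 CPM in DMSO. CA8, a related protein without catalytic activity, had 44.5 ± 0.746 CPM in B23 and 25.9 ± 0.427 CPM in DMSO. These rises had log2 differences of 0.89 and 0.77. The 5 lower genes, named after their values were seen, were CA11, SLC16A1, SLC16A3, BSG and CA5B. Their log2 differences were -0.57, -0.38, -0.30, -0.21 and -0.18.

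VEGFA encodes the main secreted growth factor of blood vessels and is among the best known HIF targets. It showed the smallest rise of the 8. VEGFA (chromosome 6, 43770184 to 43786487, plus strand) had 99.4, 98.6 and 93.6 CPM in B23, against 77.8, 72.8 and 77.5 CPM in DMSO. The groups did not overlap, and the mean was 97.2 ± 3.16 CPM in B23 and 76.0 ± 2.81 CPM in DMSO (SD, n = 3 each), 1.28-fold. The log2 difference was 0.35 (SE 0.037, limma adjusted p = 3.65e-09), and 29.2% of tested genes had a larger one. This call depended on scaling: with quantile normalization the difference was 0.051 and limma's adjusted p was 0.221, and with listed-gene totals it was 0.10, or 0.44 above the median of all genes. Among the other VEGF ligands and receptors, 7 were tested: 6 were lower and 1 passed in neither direction, with a median of -0.63. The co-receptors NRP2 and NRP1 had log2 differences of -1.92 and -1.26; NRP2 lay at 8.07 ± 0.472 CPM in B23 and 31.9 ± 1.77 CPM in DMSO, and NRP1 at 24.4 ± 1.45 CPM in B23 and 59.1 ± 0.424 CPM in DMSO. The lymphatic growth factor VEGFC also fell, to 4.23 ± 0.149 CPM in B23, against 6.86 ± 0.637 CPM in DMSO. VEGFB, the gene that passed in neither direction and named after its values were seen, had 13.2 ± 0.588 CPM in B23 and 12.9 ± 0.449 CPM in DMSO.

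ADM encodes adrenomedullin, a secreted vasodilator peptide. ADM (chromosome 11, 10304680 to 10307397, plus strand) had 35.0, 33.8 and 33.6 CPM in B23, against 12.5, 12.2 and 12.96 CPM in DMSO. Its B23 values lay within a narrow band well above DMSO, with a 2.72-fold rise and a log2 difference of 1.41 (SE 0.047, limma adjusted p = 7.75e-19). The other genes of the adrenomedullin and calcitonin peptide system mostly went down. Of 7 tested, 6 were lower and 1 higher, with a median of -0.90, where 49.0% of all tested genes were lower. PAM, the enzyme that adds the carboxy-terminal amide such peptides need, was the one that rose, with 175.7 ± 2.77 CPM in B23 and 114.2 ± 0.753 CPM in DMSO. CALCB, which encodes the beta form of calcitonin gene-related peptide, fell to 155.8 ± 7.28 CPM in B23, against 646.6 ± 29.8 CPM in DMSO. MME, an endopeptidase that cleaves many peptides, had 10.7 ± 0.237 CPM in B23 and 12.9 ± 0.0764 CPM in DMSO. The receptor partners RAMP1 and RAMP2 were chosen after their values were seen. RAMP1 had 1.99 ± 0.241 CPM in B23 and 4.56 ± 0.325 CPM in DMSO, a log2 difference of -1.02. RAMP2 had 0.715 ± 0.0445 CPM in B23 and 1.60 ± 0.138 CPM in DMSO, a log2 difference of -0.79. The receptor gene CALCRL and the partner RAMP3 were not among the listed genes.

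NDRG1 is a cytoplasmic protein known to be raised by hypoxia, by iron loss and in differentiation. NDRG1 (chromosome 8, 133237171 to 133302022, minus strand) had 359.9, 349 and 379 CPM in B23, against 83.8, 85.4 and 86.2 CPM in DMSO. Every B23 library was over the DMSO range, with a 4.26-fold rise and a log2 difference of 2.08 (SE 0.035, limma adjusted p = 1.82e-24), rank 154 among tested genes. BNIP3L lies on the same chromosome, at 26382898 to 26505636 on the plus strand. The other genes of the NDRG family did not share one direction: NDRG4 was higher at 37.6 ± 0.628 CPM in B23 and 14.2 ± 0.852 CPM in DMSO, NDRG2 was lower at 9.54 ± 0.819 CPM in B23 and 12.95 ± 0.808 CPM in DMSO, and NDRG3 was lower at 42.0 ± 1.29 CPM in B23 and 50.2 ± 1.81 CPM in DMSO. Their log2 differences were 1.38, -0.42 and -0.26.

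ANKRD37, a small ankyrin repeat protein, was low in both groups. ANKRD37 (chromosome 4, 185396021 to 185400628, plus strand) had 7.12, 7.63 and 7.70 CPM in B23, against 1.30, 1.28 and 1.16 CPM in DMSO. Its groups were well apart, at 351 to 384 reads per B23 library and 73 to 82 per DMSO library. The mean rose 6.004-fold and the log2 difference was 2.19 (SE 0.084, limma adjusted p = 1.01e-17). The difference on the log scale moved with the pseudocount, to 2.49 at 0.1 CPM and 1.55 at 2 CPM. UFSP2 shares 909 exonic bases with ANKRD37 on the opposite strand; it had 43.5 ± 0.914 CPM in B23 and 24.1 ± 0.929 CPM in DMSO. Its part in the ANKRD37 values was not tested.

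HILPDA is a small lipid droplet protein that inhibits the triglyceride lipase PNPLA2. HILPDA (chromosome 7, 128455849 to 128458418, plus strand) had 38.9, 38.3 and 41.0 CPM in B23, against 21.9, 21.1 and 21.8 CPM in DMSO. Its rise was 1.82-fold, with a log2 difference of 0.85 (SE 0.043, limma adjusted p = 3.11e-15), larger than that of VEGFA and smaller than those of the 6 strongest. Overlapping transcripts AC010655.4 and AC010655.2 on the same strand share 175 and 186 exonic bases with it and were at 17.6 ± 0.263 and 4.15 ± 0.158 CPM in B23, against 13.1 ± 0.557 and 3.4996 ± 0.0974 CPM in DMSO. Of 13 tested other lipid droplet genes, 4 were higher, 6 lower and 3 passed in neither direction, with a median of -0.18. Over all tested genes, 39.6% were higher and 49.0% lower, with a median of -0.10. PNPLA2 itself rose, with 72.3 ± 3.00 CPM in B23 and 33.6 ± 1.43 CPM in DMSO. FITM2, which promotes droplet formation, fell to 10.1 ± 0.183 CPM in B23, against 21.0 ± 0.721 CPM in DMSO. The droplet coat protein PLIN2 fell to 3.45 ± 0.644 CPM in B23, against 7.24 ± 0.485 CPM in DMSO. G0S2, another inhibitor of PNPLA2 and chosen after its values were seen, had 0.212 ± 0.013 CPM in B23 and 9.48 ± 1.06 CPM in DMSO, so that the 2 inhibitors moved in opposite directions.

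AK4 is an adenylate kinase family protein of the mitochondrial matrix. AK4 (chromosome 1, 65147549 to 65232145, plus strand) had 96.2, 98.5 and 99.7 CPM in B23, against 31.97, 33.2 and 30.1 CPM in DMSO. The groups were far apart, with a 3.09-fold rise and a log2 difference of 1.61 (SE 0.040, limma adjusted p = 2.02e-21). Over all tested genes, 39.6% were higher and 49.0% lower, with a median of -0.10. Of the other 10 nucleoside monophosphate kinases, 2 were higher, 5 lower and 3 passed in neither direction, with a median of -0.16. AK6, a nuclear member whose gene shares exons with TAF9 so that reads may be split, had 58.1 ± 1.54 CPM in B23 and 29.3 ± 2.87 CPM in DMSO. The guanylate kinase GUK1 had 134.0 ± 10.8 CPM in B23 and 92.6 ± 2.39 CPM in DMSO, and AK9 fell to 4.21 ± 0.156 CPM in B23, against 7.04 ± 0.192 CPM in DMSO.

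**Figure D4:**
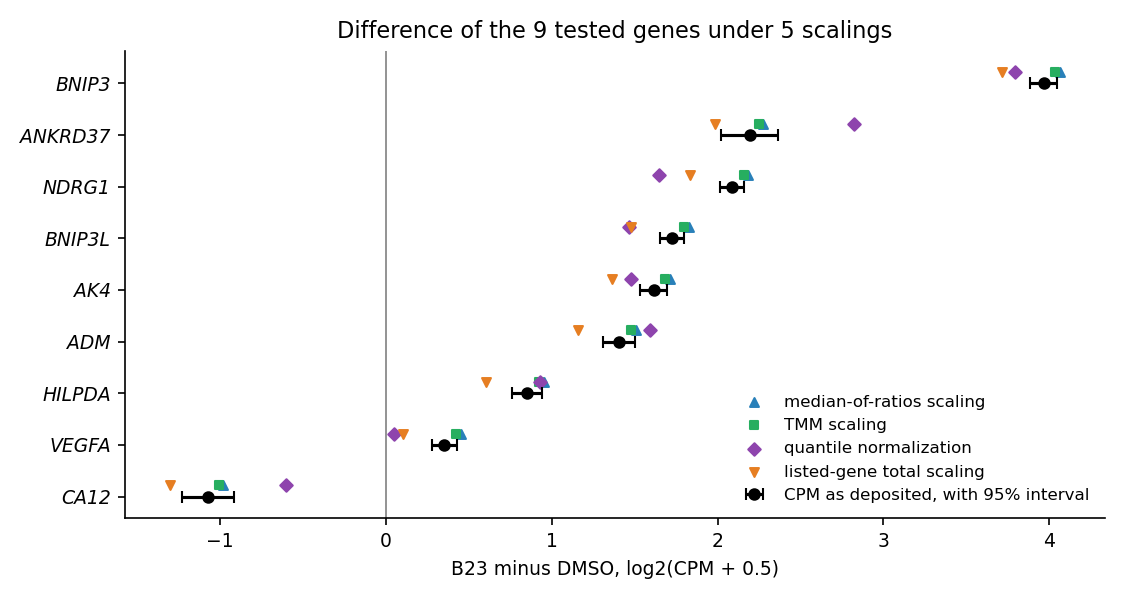
Difference of the 9 tested genes, B23 minus DMSO on the log2(CPM + 0.5) scale, with the CPM as deposited (black, with 95% interval) and under 4 other scalings (colored symbols). Directions are the same in every scaling, and VEGFA comes closest to 0, at 0.051 with quantile normalization.

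The HIF machinery itself and its other targets give the setting. HIF1A, an oxygen-regulated alpha subunit, had 202.2 ± 2.54 CPM in B23 and 69.9 ± 3.08 CPM in DMSO. ARNT had 91.0 ± 0.262 CPM in B23 and 39.2 ± 0.591 CPM in DMSO. EGLN1, the main prolyl hydroxylase, had 182.4 ± 1.78 CPM in B23 and 87.1 ± 0.878 CPM in DMSO. Across the 9 measured subunits and oxygen sensors, 5 were higher, 3 lower and 1 passed in neither direction, with a median of 0.19. These are RNA levels, and HIF is set mainly by protein stability, which was not measured. Of 39 tested other HIF targets, 28 were higher, 10 lower and 1 passed in neither direction, with a median of 0.82. PDK1, which restrains pyruvate entry into mitochondria, rose 9.46-fold, P4HA1, a collagen prolyl hydroxylase, rose 8.78-fold, and PPFIA4, a liprin scaffold protein, rose 8.85-fold. Of the 16 glycolytic enzymes, 15 were higher and 1 passed in neither direction, with a median of 1.91. The median of 1.61 of the 9 lay between those of the other targets and of glycolysis. EGLN1 and EGLN3 stand in both HIF lists. EGLN3, among the lower genes of both, had 7.33 ± 0.393 CPM in B23 and 11.9 ± 0.939 CPM in DMSO. The genes given values before it were named for the size of their difference, and all rose. EPAS1, another alpha subunit and named after its values were seen, passed in neither direction. It had 21.8 ± 0.384 CPM in B23 and 20.4 ± 0.402 CPM in DMSO.

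**Figure D5:**
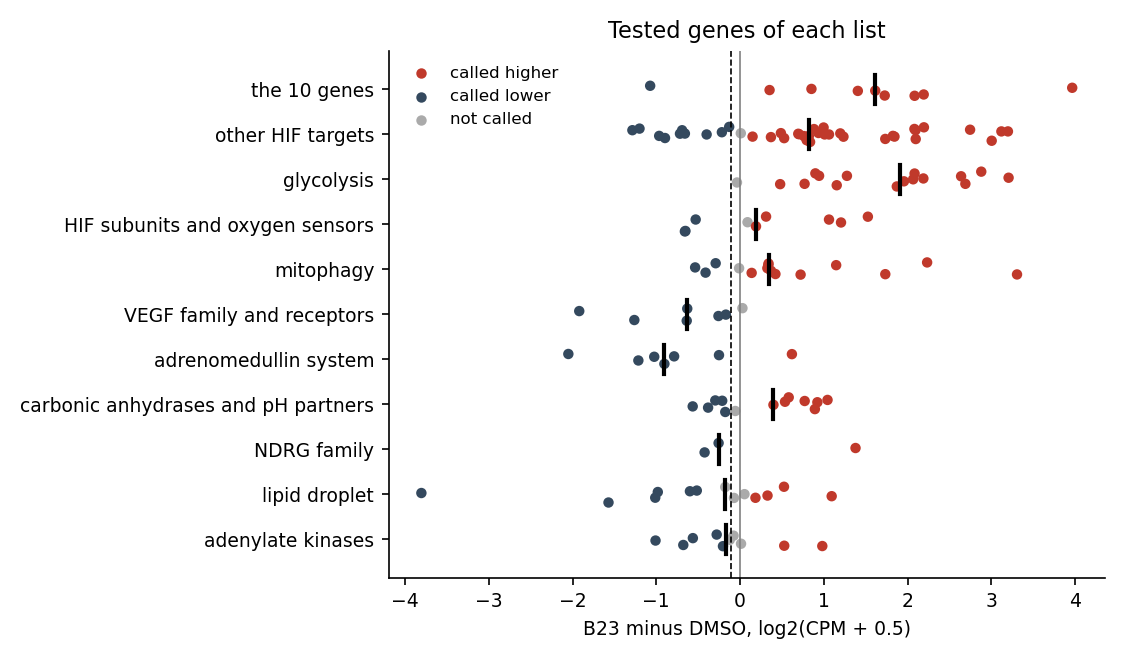
Difference of each tested gene, B23 minus DMSO on the log2(CPM + 0.5) scale, by list (red, higher; dark blue, lower; gray, passed in neither direction; black bar, median of the list; dashed line, median of all genes at -0.10). The 9 tested genes have a median of 1.61, and the VEGF and adrenomedullin lists lie mostly below 0.

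Levels of different genes can be compared only per length, here as mean CPM per kilobase of the longest coding transcript. In B23 the order was BNIP3 (126 CPM per kb), NDRG1 (96.6), BNIP3L (42.3), HILPDA (29.2), VEGFA (27.5), ADM (18.1), AK4 (14.0), ANKRD37 (6.56), CA9 (1.22) and CA12 (0.550), all in CPM per kb. In DMSO the order was NDRG1 (22.7 CPM per kb), VEGFA (21.5), HILPDA (15.997), BNIP3L (12.7), BNIP3 (7.89), ADM (6.65), AK4 (4.54), CA12 (1.24), ANKRD37 (1.09) and CA9 (0.0099), in the same unit. BNIP3 thus stood 1st in B23 and 5th in DMSO, while VEGFA stood 5th in B23 and 2nd in DMSO. Neighbors in either order did not overlap between libraries. The order of levels depends on the length used: over the merged exons of all transcripts, VEGFA stood 7th in B23 and 4th in DMSO, and in DMSO BNIP3L stood 1st, HILPDA 2nd, NDRG1 3rd and BNIP3 6th. On that length, NDRG1 and BNIP3L as well as AK4 and ADM overlapped in B23, and BNIP3L and HILPDA as well as BNIP3 and AK4 in DMSO. No library was highest for all genes: B23 replicate 3 led in BNIP3, BNIP3L, NDRG1, ANKRD37, HILPDA and AK4, replicate 1 in VEGFA, ADM and CA9, and replicate 2 in CA12. The 10 genes together summed to 1137 to 1187 CPM in the B23 libraries and 302 to 306 CPM in the DMSO libraries.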

How the data were processed

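Polyadenylated RNA of 3 B23 and 3 DMSO libraries was measured with a stranded mRNA kit, per the labels' protocols. The submitters' processing notes name STAR 2.6.1d, SAMtools, HTSeq and edgeR with hg38, without roles. The authors deposited CPM values; their scaling, gene filter and strand setting were not given in the sources used here. Whole reads were recovered from the CPM steps, and 100% of values came out whole within 0.001 reads. Genes averaging 1 CPM or more were tested on log2(CPM + 0.5) in limma 3.58.1 (R 4.3.3, trend and robust empirical Bayes), two-sided, Benjamini-Hochberg over 14792 genes, threshold 0.05; fold changes on this scale understate those of low genes, and folds are ratios of mean CPM. Alternatives were 2 pseudocounts, 2 filters, 4 scalings, limma without trend or robust, a replicate block, edgeR 4.0.16 and DESeq2 1.42.0 on recovered reads, and each library left out. The tests were checked on simulated data. Few genes changed in those data, so the check does not cover a background as broad as the one here. Gene positions come from GENCODE 29 on GRCh38, where all 15496 symbols matched and 32 had more than 1 identifier. Named genes were the 10 members, overlapping genes at 10% or more of a member's mean, listed pseudogene copies and, per list, up to 3 called genes of at least 5 CPM with non-overlapping groups and the largest difference. The members and lists were chosen with earlier results of these data known. RAMP1, RAMP2, G0S2, VEGFB, EGLN3, EPAS1, CA11, SLC16A1, SLC16A3, BSG and CA5B are named outside the rule, after their values were seen. TEK, CD68, COL1A1, DCN and the HEK293 markers are named as cell type markers. Not every gene under the rule is reported.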

Additional observations from a re-analysis of the deposited data

How the results depend on the processing

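Over 19 alternatives, 169 values of single genes kept direction and side of the threshold; CA9 gained a test when the filter was dropped, and VEGFA lost its call under quantile normalization, at 0.051 with an adjusted p of 0.221. No direction reversed. The median log2 difference of the tested genes, 1.61 as deposited, was 1.55 with a pseudocount of 2, 1.67 without a filter, 1.51 with a filter at 5 CPM, 1.71 with median-of-ratios scaling, 1.69 with TMM, 1.48 with quantile normalization, 1.36 with listed-gene totals, 1.70 in edgeR and 1.73 in DESeq2, and 1.58 to 1.65 with a library left out. The replicate block gave 5850 genes higher and 7256 lower, against 5856 and 7255 without it. Same-numbered B23 and DMSO libraries had deviations with r of 0.026, -0.070 and -0.062, and differently numbered ones had r of -0.079 to 0.157. With 3 libraries per group, these values cannot settle whether the numbers pair the libraries. Depth limits CA9, which had 1 read per DMSO library. Groups of 3 libraries cannot reach an exact permutation p below 0.1. The cause of the shifts was not tested.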
